A study of Homo sapiens with 6 samples.

Results

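The human gene loci SLC2A1, SLC25A12, GAS7, MAPK8IP1 and HMG20B were examined for the kinase CDK2 and the enzyme PARP1 on chromatin before and after progestin. They were proposed because reads of both proteins appeared to be gained there, so the differences between times that follow are descriptions without a test. The time at which the gain was seen was not stated, and every comparison with 0 min, at 5 as at 30 min, is taken as used in the choice. These 5 loci were given as ranges in hg19 and took in 58 of the 303641 windows of 10 kb in the deposited table, namely 6 for SLC2A1, 14 for SLC25A12, 31 for GAS7, 4 for MAPK8IP1 and 3 for HMG20B. All 58 passed the minimum of a mean of 10 reads over the libraries, as did 278395 windows in all. For each locus, the 100 windows within 500 kb on each side served as reference.

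DNA bound by each protein was collected by chromatin immunoprecipitation and sequenced (ChIP-seq). The cells were T47D-MTVL, a subline of the breast cancer line T47D into which a reporter under the promoter of mouse mammary tumour virus was integrated. All cells were first held in medium with charcoal-treated serum and then without serum. The 0 min cells received no hormone, and the others received 10 nM R5020, a synthetic progestin, for 5 or 30 min. There were 6 libraries, 1 for each antibody and time, with 40097131 to 63448449 reads, so no value carries an error between replicates. No input library was analysed here, and the windows of 10 kb do not resolve single binding sites.

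CDK2 is a cyclin-dependent kinase best known for driving cells into and through DNA replication. PARP1 attaches chains of ADP-ribose to itself, to histones and to other chromatin proteins, which loosens chromatin and recruits repair and transcription factors. In T47D cells the progesterone receptor binds R5020 and activates kinases within minutes, and the study concerned the activation of PARP1 by CDK2 in this early response. The genes of the 5 loci have unrelated roles. SLC2A1 encodes GLUT1, the glucose transporter of the plasma membrane that many tumour cells rely on. SLC25A12 encodes aralar, a mitochondrial carrier that exchanges aspartate and glutamate. GAS7 encodes a growth arrest-specific protein that shapes the actin cytoskeleton, MAPK8IP1 encodes the scaffold JIP1, which holds the kinases of the JNK pathway together, and HMG20B encodes an HMG-box protein (BRAF35) of the LSD1-CoREST repressor complex.

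Promoter sequences were at hand for 3 of the 5 genes (RefSeq, GRCh38.p14) and are shown because they are the regulatory DNA of loci in which both proteins were higher in at least 1 window at 30 min. Each run holds the 250 bases before the gene start, 5′ to 3′ on the strand of the gene. Capitals mark matches, on either strand, to the CCAAT box (CCAAT), the GC box (GGGCGG) or the TATA box (TATAAA), and adjoining matches run together. The positions are 42958869 to 42959118 on chromosome 1, minus strand, for SLC2A1, 171894245 to 171894494 on chromosome 2, minus strand, for SLC25A12, and 3572694 to 3572943 on chromosome 19, plus strand, for HMG20B. They belong to a build other than that of the read counts and were not placed in the windows.
SLC2A1: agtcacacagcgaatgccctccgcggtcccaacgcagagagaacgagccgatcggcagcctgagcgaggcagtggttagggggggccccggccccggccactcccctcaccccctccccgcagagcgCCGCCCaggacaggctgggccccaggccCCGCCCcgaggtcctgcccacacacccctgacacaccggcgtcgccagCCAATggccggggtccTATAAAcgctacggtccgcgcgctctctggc
SLC25A12: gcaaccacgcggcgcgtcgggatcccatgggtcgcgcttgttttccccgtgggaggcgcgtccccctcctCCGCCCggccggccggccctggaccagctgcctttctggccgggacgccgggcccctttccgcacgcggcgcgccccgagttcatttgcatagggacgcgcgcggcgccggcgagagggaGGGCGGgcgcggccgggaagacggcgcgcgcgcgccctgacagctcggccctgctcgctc
HMG20B: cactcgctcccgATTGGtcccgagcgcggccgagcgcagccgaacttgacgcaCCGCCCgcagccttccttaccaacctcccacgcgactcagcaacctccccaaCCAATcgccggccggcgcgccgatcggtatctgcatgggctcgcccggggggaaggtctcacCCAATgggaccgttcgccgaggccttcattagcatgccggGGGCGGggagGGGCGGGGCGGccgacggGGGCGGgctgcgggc

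All 3 promoters were rich in G and C, with 72.4% in SLC2A1, 77.2% in SLC25A12 and 72.4% in HMG20B, against a median of 58% over 35116 promoters of the table. They held 24, 42 and 33 CpG dinucleotides in the same order, against a median of 11. The GC box matched 2 times in SLC2A1, 2 times in SLC25A12 and 5 times in HMG20B, and 42.6% of all promoters hold at least 1 match. The CCAAT box matched 1 time in SLC2A1 and 3 times in HMG20B (32% of all promoters), and the TATA box 1 time in SLC2A1 (10.7%). The hexamer of progesterone receptor elements, AGAACA on either strand, had no match in these 3 stretches, and 12.4% of all promoters hold one.

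In each locus the window with the highest joint ratio at 30 min is described first, by a local level and a local ratio. The local level is the number of reads in a window over the median of the windows within 500 kb on each side in the same library, so that 1 is the level of the surroundings. The local ratio compares 2 libraries, as the ratio of reads in the window over the same ratio summed across those surroundings, and both measures are free of sequencing depth and of the copy number of the region. The lead window of a locus is the one in which the smaller of the CDK2 and PARP1 local ratios at 30 against 0 min was highest. All 5 lead windows had a ratio of at least 2 for both proteins, as had 144 of the 278395 windows (0.0517%), among which they ranked between 35 and 80 by the smaller ratio. The lead windows were chosen by these values, and nothing is inferred from their height. Intervals are 95% counting intervals, widened by the dispersion of each comparison (the spread of window ratios beyond counting error), and take the surroundings as known.

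The lead window of SLC2A1, 43390001 to 43400000 on chromosome 1, held 129, 245 and 363 CDK2 reads and 90, 177 and 274 PARP1 reads at 0, 5 and 30 min. The local level went from 1.14 through 1.68 to 3.27 for CDK2 and from 0.638 through 1.06 to 1.60 for PARP1. By these levels both proteins were lowest at 0 min, intermediate at 5 min and highest at 30 min. The intervals of 5 against 0 min and of 30 against 5 min spanned 1 for both proteins, so the place of 5 min was not resolved. CDK2 at 30 min was the highest level of any lead window. The local ratio at 30 against 0 min was 2.68 (interval 1.22 to 6.45) for CDK2 and 2.500 (1.47 to 4.45) for PARP1. Both windows beside it were near their surroundings, with CDK2 ratios of 0.830 and 1.12 and PARP1 ratios of 1.06 and 0.792. The window 2 places further, 43410001 to 43420000, was also higher for both, with 2.59 for CDK2 and 1.504 for PARP1.

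In SLC25A12 the lead window, 172750001 to 172760000 on chromosome 2, held 81, 82 and 166 CDK2 reads and 72, 133 and 225 PARP1 reads. CDK2 was level between 0 and 5 min and higher at 30 min only, with local levels of 0.707, 0.633 and 1.46. PARP1 went from 0.486 of its surroundings through 0.908 to 1.32. The local ratio at 30 min was 2.68 (1.48 to 5.14) for PARP1 and 2.20 for CDK2, whose interval of 0.752 to 7.33 spans 1. The windows on both sides showed no such height, with CDK2 ratios of 0.549 and 1.06 and PARP1 ratios of 1.02 and 0.976.

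The lead window of GAS7, 10020001 to 10030000 on chromosome 17, held 97, 101 and 199 CDK2 reads and 85, 185 and 273 PARP1 reads. Its order was that of SLC25A12. CDK2 levels were 0.942, 0.842 and 2.33, and PARP1 levels were 0.637, 1.21 and 1.79. The ratio at 30 min was 2.77 (1.61 to 5.00) for PARP1, the highest of the 5, and 2.23 (0.841 to 6.56) for CDK2. The adjoining windows had CDK2 ratios of 0.731 and 0.921 and PARP1 ratios of 0.982 and 1.23. For CDK2 alone the lead was not the highest window of GAS7, since 9840001 to 9850000 had a CDK2 ratio of 3.48 with 1.13 for PARP1, and 40 kb before the lead CDK2 had 2.13 with 0.893 for PARP1.

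In MAPK8IP1 the lead window, 45920001 to 45930000 on chromosome 11, held 145, 186 and 357 CDK2 reads and 139, 363 and 385 PARP1 reads. Here PARP1 stood at its 30 min level already at 5 min, with local levels of 0.506, 1.11 and 1.10, while CDK2 went from 0.646 and 0.735 to 1.62. The ratio at 30 min was 2.45 (1.15 to 5.65) for CDK2 and 2.18 (1.42 to 3.45) for PARP1. CDK2 was also higher in the neighbours, with 2.19 and 1.59 inside the locus and 2.10 in the window just past the end of the range given for the gene. PARP1 was not, with 1.18, 0.943 and 1.16 in the same windows.

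The lead window of HMG20B, 3570001 to 3580000 on chromosome 19, held 71, 95 and 204 CDK2 reads and 62, 213 and 190 PARP1 reads. PARP1 again had its 30 min level at 5 min, with 0.653, 1.59 and 1.54, and CDK2 went from 0.871 through 1.12 to 2.19. The ratio at 30 min was 2.40 (1.26 to 4.88) for PARP1 and 2.33 for CDK2, with an interval of 0.803 to 8.18. The following window, 3580001 to 3590000, was likewise higher for both at 30 min, with 2.62 for CDK2, above the lead, and 1.56 for PARP1, although it held only 20 CDK2 reads at 5 min against 81 at 0 min and 260 at 30 min. The window before the lead was not, with 0.886 for CDK2 and 0.802 for PARP1.

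**Figure D1:**
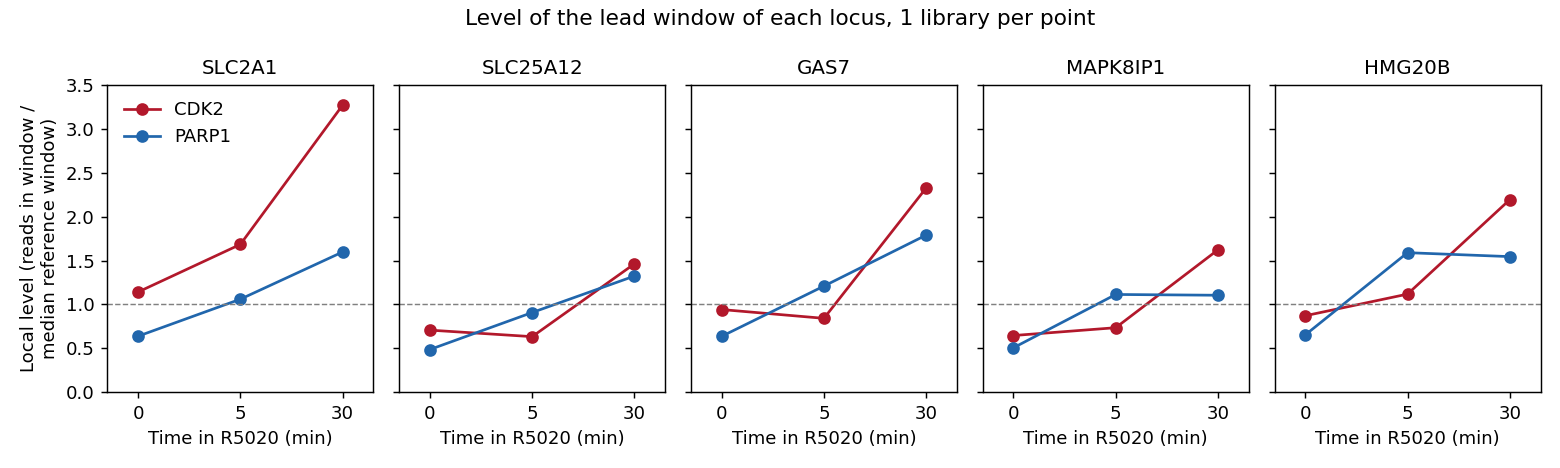
Local level (reads in the window over the median reference window, linear axis) of the lead window of each locus against time in R5020, with 1 library per point, CDK2 in red and PARP1 in blue. At 0 min every PARP1 point lies below 1, and at 30 min every point of both antibodies lies above 1.

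Before hormone the lead windows held less PARP1 than their surroundings. The PARP1 level at 0 min was between 0.486 and 0.653 in all 5, and between 93.4% and 97.2% of 276144 windows with full surroundings had a level at least as high. CDK2 at 0 min was below 1 in 4 of the 5, with SLC2A1 above. Other windows with high ratios for both proteins were also low at 0 min. The 129 windows with full surroundings and a ratio of at least 2 for both, as in the lead windows, had a median 0 min level of 0.443 for PARP1 and 0.559 for CDK2, and each lead window lay above these medians. The 2370 windows with a local ratio of at least 1.5 for both proteins had a median 0 min level of 0.742 for PARP1 and 0.826 for CDK2, against 1.00 for both proteins over all windows. The median at 30 min of these 2370 was 1.249 for PARP1 and 1.67 for CDK2, and that of the 129 was 1.12 and 1.64. By these medians the ratios hold a low 0 min value as well as a high 30 min value, but the lead windows differed at 30 min. A PARP1 level at least as high was held by 32.2% of windows for MAPK8IP1, 8.55% for SLC25A12 and 0.754% to 2.01% for the others. For CDK2 the shares were 18.4% for SLC25A12, 12.1% for MAPK8IP1 and 0.504% to 2.68% for the others. How much of the low 0 min value comes from choosing windows by a ratio that has it as denominator was not tested.

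The 5 min libraries do not enter the ratio that picks the lead window within a locus. Their comparisons with 0 min are taken as used in choosing the loci, so the values at 5 min are descriptions too. In the 5 min library PARP1 was near or above its surroundings, with levels of 0.908 in SLC25A12, 1.06 in SLC2A1, 1.11 in MAPK8IP1, 1.21 in GAS7 and 1.59 in HMG20B. Of all windows, 2.995% had a PARP1 level at least as high as HMG20B, 22.4% as GAS7, 34.0% as MAPK8IP1, 41.7% as SLC2A1 and 64.8% as SLC25A12, so HMG20B was far from the middle and the other 4 were not. CDK2 at 5 min was above 1 in SLC2A1 and HMG20B, with 1.68 and 1.12, and below 1 in the other 3. For SLC2A1, 14.6% of windows were as high. Against 0 min, the PARP1 ratio at 5 min was 2.56 (1.23 to 5.89) in HMG20B and 2.19 (1.32 to 3.78) in MAPK8IP1, and it lay between 1.61 and 1.92 with intervals spanning 1 in the others. These ratios share the 0 min library with those of 30 min. The CDK2 ratios at 5 min lay between 0.776 and 1.43, and all 5 intervals spanned 1.

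Directly between 30 and 5 min, the 0 min libraries do not enter, but the 30 min libraries by which the lead windows were picked do. High ratios here are therefore not free of that choice and are descriptions. CDK2 was higher at 30 min in all 5 lead windows, with local ratios from 1.87 in SLC2A1 to 2.84 in SLC25A12, but every interval spanned 1. PARP1 had 1.55 in SLC2A1, 1.45 in SLC25A12 and 1.45 in GAS7, against 0.995 in MAPK8IP1 and 0.938 in HMG20B, and again every interval spanned 1. At the depth of single windows, an order of the times between 5 and 30 min could not be told from counting error widened by the spread between windows. The dispersion that widens these intervals was 31.7 for CDK2 and 6.51 for PARP1. The CDK2 library of 5 min was the least even of the 6, with 3986 compared windows at 0 reads, against 14 and 588 in CDK2 at 0 and 30 min and 4 to 14 in PARP1. Within the loci it held 0 reads at 172710001 to 172720000 in SLC25A12, with 124 and 103 CDK2 reads at 0 and 30 min, and 1 read at 9960001 to 9970000 in GAS7, with 75 and 49.

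**Figure D2:**
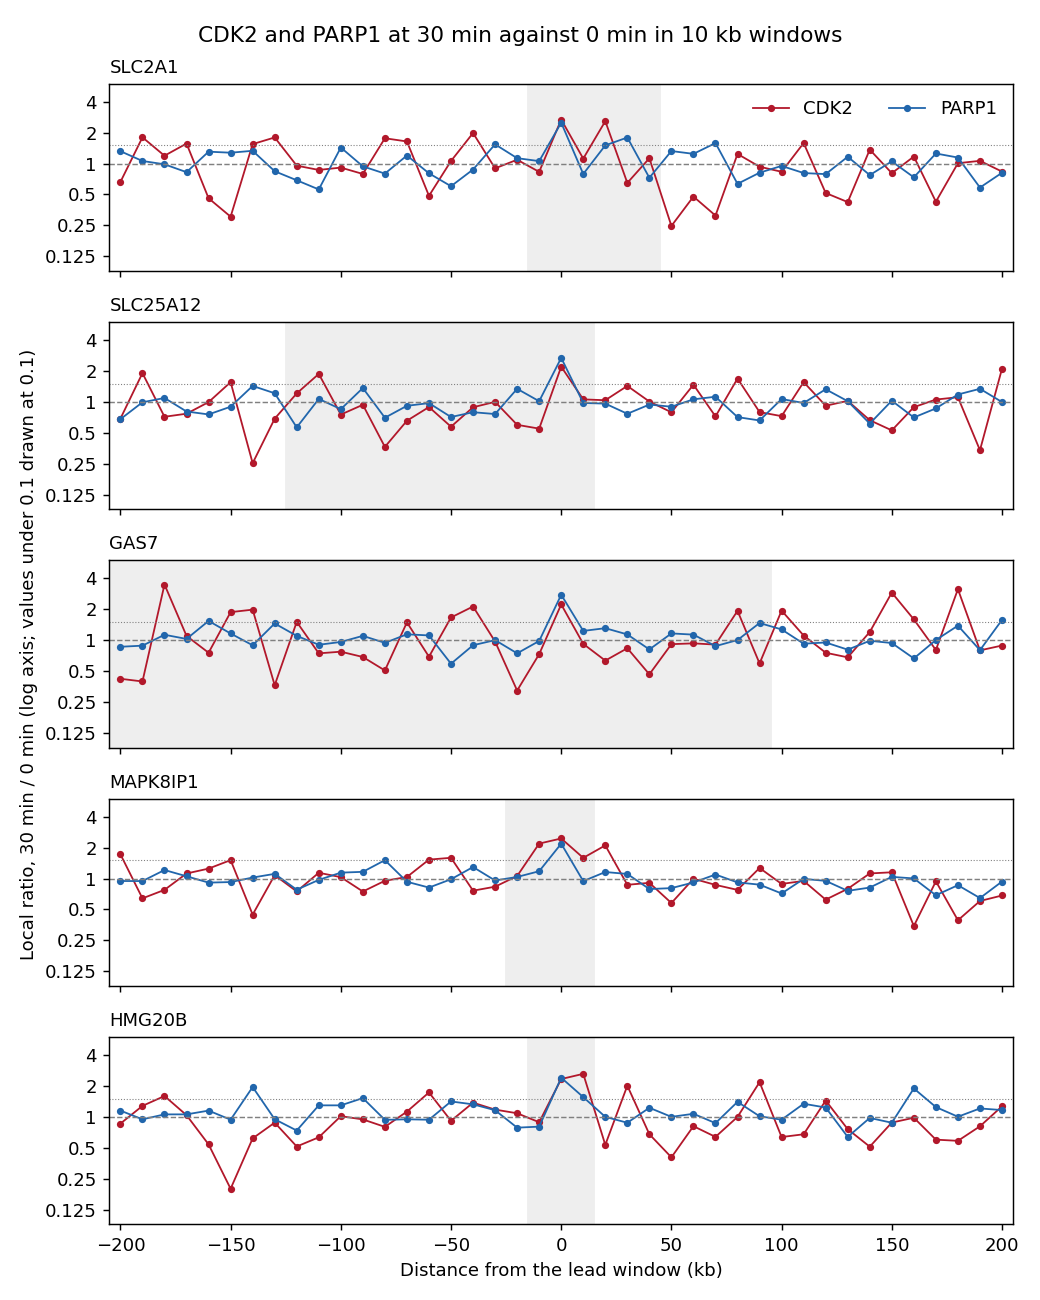
Local ratio of 30 against 0 min (log axis) in windows of 10 kb by distance from the lead window, for CDK2 (red) and PARP1 (blue), with the range given for each gene in grey and dotted lines at 1.5. Both lines are over 2 at distance 0 in each panel, and at other distances CDK2 passes 1.5 without PARP1 in every panel and PARP1 without CDK2 in all but SLC25A12.

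Over whole loci the picture differed between the genes. In SLC2A1, MAPK8IP1 and HMG20B the summed reads gave local ratios at 30 min whose intervals lay above 1 for both proteins. In SLC25A12 and GAS7 the intervals of both proteins spanned 1, so over the ranges given for these 2 genes a joint gain was not found. In each of them only the lead window had a ratio of at least 1.5 for both proteins at 30 min, and its CDK2 interval spanned 1 as well. The values of each locus follow in the order of the ratios for CDK2, in which the intervals of neighbours overlap.

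HMG20B (30 kb) held 224, 155 and 543 CDK2 reads and 218, 437 and 413 PARP1 reads at 0, 5 and 30 min. The local ratio at 30 min was 2.00 (1.09 to 3.85) for CDK2 and 1.48 (1.02 to 2.16) for PARP1. PARP1 at 5 min had the same ratio, 1.49 (0.973 to 2.31), while CDK2 at 5 min had 0.596 (0.188 to 1.77). HMG20B was the only one of the 5 loci in which the CDK2 interval between 30 and 5 min lay above 1, with 3.36 (1.18 to 11.8). The 3 windows of the locus had ratios of 1.84, 1.98 and 12.2, the last with only 20 CDK2 reads at 5 min. Its surroundings also moved, since the reference windows had depth-scaled ratios of 1.36 for CDK2 at 30 min and 1.28 for PARP1 at 5 min, which the local ratio removes.

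MAPK8IP1 (40 kb) held 731, 1168 and 1228 CDK2 reads and 823, 1404 and 1302 PARP1 reads. Both proteins were lowest at 0 min. PARP1 was highest at 5 min, although its interval of 30 against 5 min (0.707 to 1.05) spanned 1. The local level of the locus was 0.810, 1.15 and 1.41 for CDK2 and 0.744, 1.08 and 0.934 for PARP1, so PARP1 was below its surroundings at 0 min and again at 30 min. At 30 min the ratio was 1.70 (1.19 to 2.44) for CDK2 and 1.252 (1.03 to 1.52) for PARP1. At 5 min PARP1 had 1.45 (1.16 to 1.82) and CDK2 1.38 (0.872 to 2.23). All 4 windows had a CDK2 ratio above 1 at 30 min and a PARP1 ratio above 1 at 5 min, against 47.1% and 48.9% of all windows.

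SLC2A1 (60 kb) held 667, 1018 and 1076 CDK2 reads and 836, 1066 and 1334 PARP1 reads. Its level at 0 min was that of the surroundings, with 0.997 for CDK2 and 0.988 for PARP1, and at 30 min it was 1.62 and 1.30. The ratio at 30 min was 1.52 (1.05 to 2.24) for CDK2 and 1.31 (1.08 to 1.59) for PARP1. At 5 min both were close to 1, with 1.17 (0.718 to 1.94) and 1.04 (0.822 to 1.32). PARP1 was also higher at 30 than at 5 min, with 1.26 (1.02 to 1.56), the only one of the 5 loci with that interval above 1.

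GAS7 (310 kb) held 2935, 3580 and 2807 CDK2 reads and 3998, 5080 and 4989 PARP1 reads. CDK2 stayed near its surroundings, with local ratios of 1.05 (0.824 to 1.34) at 5 min and 1.03 (0.841 to 1.252) at 30 min. PARP1 was higher at 5 min, with 1.19 (1.07 to 1.33), and had 1.07 (0.975 to 1.17) at 30 min, and the direct ratio of 30 to 5 min was 0.896 (0.810 to 0.992). The PARP1 excess at 5 min was spread along the range, with 20 of 31 windows above 1 (64.5%, against 48.9% of all windows). Among the 31 windows the CDK2 ratio at 30 min ran from 0.323 to 3.48 and the PARP1 ratio from 0.590 to 2.77.

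SLC25A12 (140 kb) held 1617, 2099 and 1324 CDK2 reads and 2097, 2013 and 2438 PARP1 reads. Relative to the surroundings its level lay between 0.808, for CDK2 at 30 min, and 1.15, for CDK2 at 5 min. The ratio at 30 min was 0.857 (0.646 to 1.14) for CDK2 and 1.00 (0.880 to 1.14) for PARP1, and at 5 min 1.00 (0.727 to 1.39) and 0.951 (0.812 to 1.11). At 30 min 5 of 14 windows (35.7%) had a CDK2 ratio above 1 and 5 of 14 a PARP1 ratio above 1, against 47.1% and 49.5% of all windows. The lead window is the last but one of the range.

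Without its lead window, no locus kept an interval above 1 for either protein at 30 against 0 min. The lead window was chosen for high ratios at 30 min, so lower ratios without it follow largely from the choice, and fewer reads remain. For CDK2 the ratio became 1.83 (0.862 to 4.15) in HMG20B, 1.501 (0.998 to 2.28) in MAPK8IP1 and 1.251 (0.806 to 1.96) in SLC2A1, and it was 0.986 in GAS7 and 0.789 in SLC25A12. For PARP1 it became 1.12 (0.700 to 1.80), 1.06 (0.851 to 1.33) and 1.16 (0.946 to 1.44) in the first 3, and 1.03 and 0.941 in the others. The PARP1 ratios of 5 min in GAS7 and MAPK8IP1 kept theirs, with 1.17 (1.05 to 1.31) and 1.30 (1.01 to 1.67). Between 30 and 5 min, the CDK2 interval of HMG20B stayed above 1 (5.42, 1.14 to 55.0) and the PARP1 interval of GAS7 below 1 (0.879, 0.793 to 0.975), while the PARP1 interval of SLC2A1 spanned 1 (1.20, 0.949 to 1.52). The HMG20B value rests on 2 windows. Their ratios were 1.84 and 12.2, the latter in 3580001 to 3590000 with 20 CDK2 reads at 5 min. The CDK2 interval of SLC2A1 at 30 min also spanned 1 with the lower-coordinate side alone as reference (1.43, 0.982 to 2.10), as did the PARP1 interval of MAPK8IP1 (1.20, 0.989 to 1.46), and that of HMG20B did so with a reference of 250 kb (1.36, 0.941 to 1.99).

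**Figure D3:**
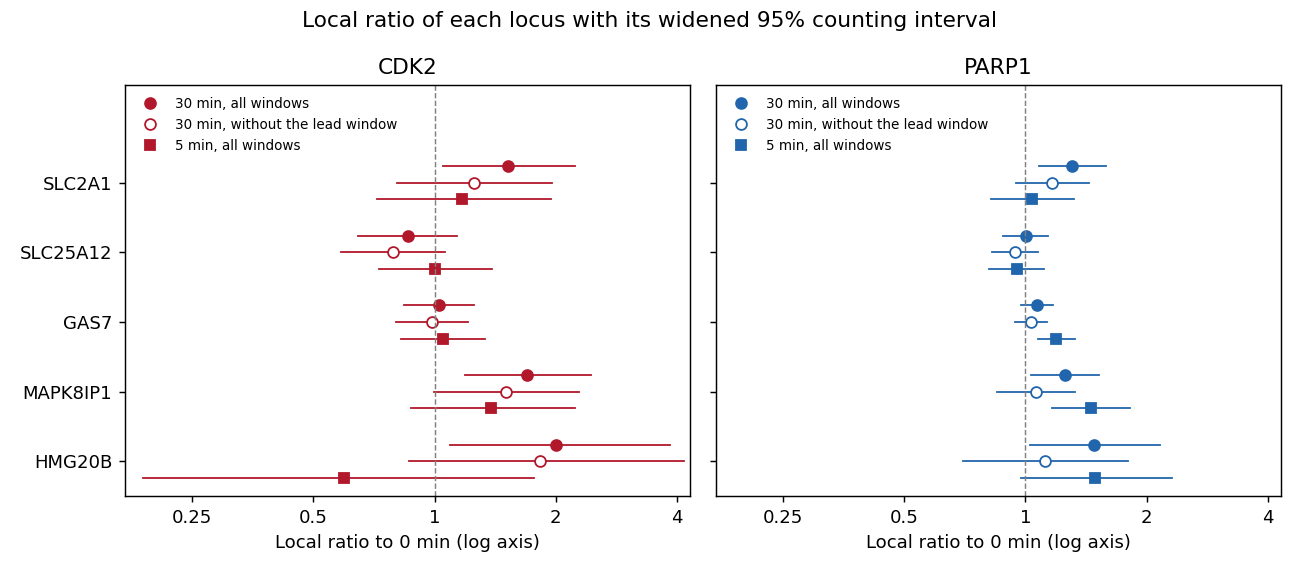
Local ratio to 0 min of each locus (log axis) with its widened 95% counting interval, CDK2 on the left and PARP1 on the right. Filled circles are 30 min, open circles 30 min without the lead window and squares 5 min. The filled circles of SLC2A1, MAPK8IP1 and HMG20B have intervals above 1 for both proteins, and no open circle has.

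Segments of the genome of the same number of windows give a scale for these ratios. Among 93071 segments of 3 windows, 0.530% had a CDK2 ratio at 30 min at least that of HMG20B and 0.447% a PARP1 ratio at least as high. Among 69868 segments of 4 windows the shares for MAPK8IP1 were 1.247% and 3.26%, and among 46684 segments of 6 windows those for SLC2A1 were 1.84% and 0.653%. These 3 loci lay near the upper end for both proteins, for whose gain they were proposed. For GAS7 the shares were 40.3% and 13.1% of 9117 segments, and for SLC25A12 84.3% and 48.9% of 20095, so SLC25A12 lay at or below the middle for both proteins and GAS7 near it for CDK2 and above it for PARP1. The PARP1 ratio of 5 min was matched by 0.674% of segments for MAPK8IP1, 0.881% for HMG20B and 0.932% for GAS7, and by 36.7% and 70.9% for SLC2A1 and SLC25A12, and these shares too are descriptions. The CDK2 ratio at 5 min was matched by 9.58% for MAPK8IP1, 21.9% for SLC2A1, 32.8% for GAS7, 48.1% for SLC25A12 and 91.7% for HMG20B.

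Counted by windows, 7 of the 58 had a local ratio of at least 1.5 for both proteins at 30 min, against a background of 0.87% of all compared windows. They were the 5 lead windows and the second window named above in SLC2A1 and in HMG20B. In the 500 reference windows there were 6 such windows (1.20%). The loci were proposed for a joint gain, so the count is given as a description. None of the 58 windows was lower for both (at most 0.667), against 1.46% of all windows and 9 of the reference windows.

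For CDK2 alone at 30 min, 17 of the 58 windows were higher by that fold (29.3%, background 15.7%) and 15 lower (25.9%, background 22.7%). Of the higher ones 8 were in GAS7, where 9 were lower, and SLC25A12 had 2 higher and 5 lower. MAPK8IP1 had 3 of 4 windows higher and none lower. For PARP1 alone at 30 min, 9 of 58 were higher (15.5%, background 3.85%) and 2 lower (3.45%, background 4.59%). The 9 were 3 in SLC2A1, 2 in GAS7, 2 in HMG20B and 1 each in MAPK8IP1 and SLC25A12. The median over the 58 windows was 0.918 for CDK2 and 1.02 for PARP1, against 0.967 and 0.997 over all windows, so the typical window of the loci was close to its surroundings for both.

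At 5 min no window of the 58 reached 1.5 for both proteins, with a background of 1.2%. CDK2 was higher in 11 (background 18.3%) and lower in 17 (background 27.4%), shares of 19.0% and 29.3% that lie close to the background. PARP1 was higher in 7 windows (12.1%, background 5.9%) and lower in 4 (6.90%, background 7.93%). Its median over the 58 windows was 1.14, against 0.993 over all, and 37 of them were above 1 (63.8%, against 48.9% of all windows). Between 30 and 5 min CDK2 was higher in 23 windows (39.7%, background 28.7%), 13 of them in GAS7, and PARP1 in 5 (8.62%, background 7.31%), 3 of them in SLC2A1. Lower windows were not counted for this comparison. Over the whole GAS7 locus the CDK2 ratio of 30 to 5 min was 0.979 (0.733 to 1.30). Its 31 windows ran from 0.225 to 65.3, and 17 of them were above 1 (54.8%, against 50.9% of all windows).

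**Figure D4:**
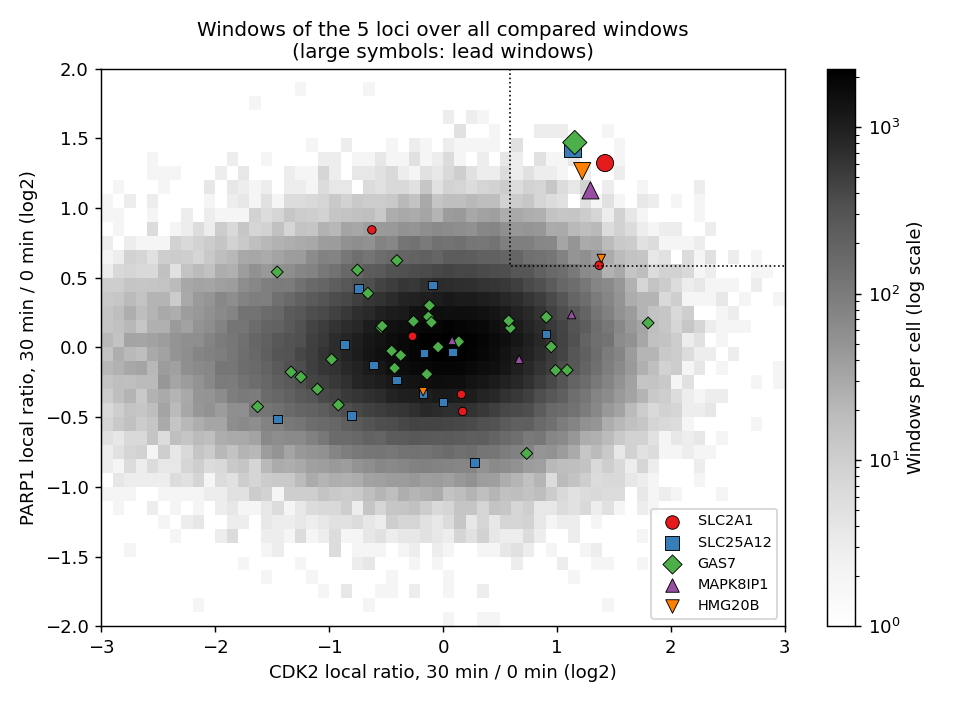
Local ratios of 30 against 0 min (log2) for CDK2 (horizontal) and PARP1 (vertical), with all compared windows inside the axes in grey (log scale of windows per cell) and the 58 windows of the loci as symbols by gene. The 5 large symbols of the lead windows and 2 small ones lie inside the dotted corner, which marks ratios of at least 1.5 for both, and the other 51 lie outside it.

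The 2 antibodies were set against each other at each time, which describes only where reads lay, since antibodies differ in yield. At 0 min the local CDK2 to PARP1 ratio of the loci lay between 0.896 in GAS7 and 1.24 in HMG20B, and only the interval of GAS7 (0.809 to 0.992) left out 1. At 30 min it was 1.68 (1.00 to 2.84) in HMG20B, 1.48 (1.09 to 2.02) in MAPK8IP1 and 1.16 (0.842 to 1.60) in SLC2A1, and below 1 in GAS7 (0.860, 0.717 to 1.03) and SLC25A12 (0.831, 0.636 to 1.08). The loci fell in the same order as for CDK2 at 30 against 0 min, the same CDK2 library enters both, and the intervals of neighbours in this order overlap. At 5 min the order was another, with 0.497 (0.151 to 1.38) in HMG20B as the lowest and 1.12 (0.693 to 1.82) in SLC2A1 as the highest, and only the interval of GAS7 (0.788, 0.623 to 0.994) left out 1.

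As profiles over the 6 libraries, the loci were compared by the root mean square difference of their log2 local levels. GAS7 and SLC25A12 were closest, with 0.22, followed by SLC2A1 and MAPK8IP1 with 0.29 and GAS7 and MAPK8IP1 with 0.31. SLC25A12 and HMG20B were farthest apart, with 0.68. Outside the loci, the segments of equal width nearest to each were closer than any pair of the 5. They were 39730001 to 39790000 on chromosome 6 for SLC2A1 (0.05), 86230001 to 86370000 on chromosome X for SLC25A12 (0.02), 39710001 to 40020000 on chromosome 22 for GAS7 (0.04), 100250001 to 100290000 on chromosome X for MAPK8IP1 (0.05) and 133660001 to 133690000 on chromosome X for HMG20B (0.11), and the next nearest segment of each lay at 0.02 to 0.11. With 6 values per profile and many segments to choose from, near matches are found for any locus.

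The edges of the ranges were given and not measured. Just outside SLC2A1, CDK2 at 30 min had a ratio of 1.09 before and 0.247 after the range, and PARP1 had 1.13 and 1.32. Just outside GAS7 CDK2 had 1.01 and 1.94 and PARP1 1.19 and 1.27, and just outside SLC25A12 CDK2 had 0.687 and 1.04 and PARP1 1.21 and 0.962. For HMG20B CDK2 had 1.08 and 0.534 and PARP1 0.784 and 0.999, and before MAPK8IP1 they had 0.832 and 0.956. In the gene order of RefSeq (GRCh38.p14, names only) the coding neighbours are ZNF691 and CFAP144 for SLC2A1, DYNC1I2 and HAT1 for SLC25A12, RCVRN and MYH13 for GAS7, CRY2 and FREY1 for MAPK8IP1, and TEKTIP1 and GIPC3 for HMG20B. Whether reads of a window belong to the named gene or to a neighbour cannot be told at this resolution.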

How the data were processed

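The authors deposited whole-number read counts, without normalization, in windows of 10 kb for the 6 libraries, and per the submitters' processing notes Bowtie 1.0.0 and the build hg19 (GRCh37) were used. Steps on duplicate reads and on reads with several matches were not given in the sources used here. Members, lists and lead-window rule were chosen with earlier results of these data known. Reads of a locus or window were compared between 2 libraries as a ratio over that of the windows within 500 kb on each side. A library with 0 reads in the denominator counts as 3. Intervals are Clopper-Pearson intervals conditional on the sum of both counts, with counts divided by a dispersion, the robust variance of window log ratios around the local ratio over its Poisson expectation. The dispersion was 4.73 and 6.39 for PARP1 and 14.1 and 23.0 for CDK2 at 30 and 5 min against 0 min. Intervals cover counting error widened by this spread between windows, and no error between replicates. Windows with a mean under 10 counts were left out of the window counts, their backgrounds and the dispersion, but not out of the surroundings used as reference. The code was tested on simulated data. No test across replicates was possible. Named were all 5 loci, each with its lead window (the highest smaller ratio of both antibodies at 30 min), the windows at the edges and the nearest segments. Segments of equal width, and window levels over each window's own surroundings, were added after the values had been seen. No annotation of hg19 was used, so the gene lists planned (glucose transporters, aspartate and glutamate shuttle, JNK pathway, LSD1-CoREST complex) were not evaluated. TMM factors came from edgeR 4.0.16 and size factors from DESeq2 1.42.0, for scaling only, with R 4.3.3, Python 3.11.15, numpy 2.4.6, pandas 2.3.3, scipy 1.17.1 and matplotlib 3.10.9.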

Additional observations from a re-analysis of the deposited data

How the results depend on the processing

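Each of the 20 local ratios of the loci to 0 min was recomputed under 9 alternatives, and all 180 values stayed inside the widened interval of the main value. The alternatives largely reuse the same reads and the intervals are wide, so staying inside them says little. The CDK2 ratio of HMG20B at 5 min, for example, went from 0.596 to 0.338 and stayed within 0.188 to 1.77. Of the 8 ratios with an interval above 1, 63 of 72 alternatives kept it there. The 9 that did not were 6 without the lead window, which was chosen for high ratios at 30 min, 2 with the lower-coordinate side alone and 1 with a reference of 250 kb. In the other direction, the PARP1 interval of HMG20B at 5 min moved above 1 with a reference of 1 Mb (1.54) and with the lower-coordinate side alone (1.54). Counts of the 58 windows depended on the fold. For CDK2 at 30 min, 18 were higher by a fold of 5 to 4 (31.0%, background 28.0%), a share close to the background. For both proteins at 30 min, 7 were higher by a fold of 5 to 4 (12.1%, background 5.05%). By a fold of 2, 5 were higher for both at 30 min (8.62%, background 0.0517%). With a fold of 5 to 4 in place of 1.5, windows higher for both proteins at 5 min went from 0 to 5 (8.62% of the 58, background 5.65%), for PARP1 at 30 min from 9 to 14 (24.1%, 15.4%), for CDK2 at 5 min from 11 to 20 (34.5%, 30.1%) and for PARP1 at 5 min from 7 to 21 (36.2%, 18.7%). With a fold of 2, CDK2 at 30 min went from 17 to 10 (17.2%, 4.75%), PARP1 at 30 min from 9 to 5 (8.62%, 0.391%), CDK2 at 5 min from 11 to 5 (8.62%, 6.45%) and PARP1 at 5 min from 7 to 2 (3.45%, 0.712%). The local ratios do not depend on scaling. Without a reference, scaling on the tenth of windows with the lowest means raised CDK2 log2 ratios by 0.32 at 5 min and 0.14 at 30 min. No paired analysis was possible because each antibody and time had 1 library, and none could be left out.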
